A study of Mus musculus with 4 samples.

Results

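The nuclear genes of the mitochondrial respiratory chain were followed through single-cell RNA libraries of mouse pancreas and pancreatic tumour. They were taken by gene symbol, as those starting with Nduf, Uqc, Atp5, Sdh or Cox and a digit, with mitochondrially encoded genes and pseudogenes left out. This gave 109 of the 32285 genes counted in each library. Complex I accounted for 38 subunit genes and 8 assembly or other genes, complex II for 4 and 4, complex III for 8 and 3, complex IV for 18 and 9, and complex V for 17 subunit genes. The symbol rule therefore took in 24 assembly and other genes beside the subunits, and it placed Ndufa4, which is now known as a subunit of complex IV, under complex I by its name. Measured values played no part in the choice of genes.

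Electrons from NADH enter the chain at complex I and those from succinate at complex II, pass through complex III, and reach oxygen at complex IV, cytochrome c oxidase. Complexes I, III and IV pump protons across the inner mitochondrial membrane, and complex V, the ATP synthase, uses the gradient to make ATP. Most subunits are encoded in the nucleus and a smaller set on mitochondrial DNA, so the assembled complexes need both genomes, with complex II made of nuclear products alone. Several subunits of complex IV exist as paralogs that are made in particular tissues.

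The 4 groups were KPC tumours of mice given AF12198, control KPC tumours, suture-ligated pancreas and normal pancreas. KPC cells are mouse pancreatic cancer cells; here they were placed in the pancreas of mice whose gland had been tied off with a suture at its middle, which blocks the duct and starts pancreatitis. Both tumour groups thus share the ligation and the inoculated cells, and the tumours are allografts in which host and inoculated epithelium were not labelled apart. AF12198 is a peptide that blocks the interleukin-1 receptor IL1R1, given into the peritoneum every week, with saline in its place for the control tumours, and tissue was taken at 4 weeks. The labels do not name the strain, age, sex or number of the animals. With a single library in each group, the differences have no check by replicates. The printed intervals cover 95% counting error only, and values of the same library are not independent of each other.

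After filtering, 18850 cells remained for the AF12198 tumour, 19288 for the control tumour, 1124 for the ligated pancreas and 1769 for the normal pancreas, with median depths of 1589 to 2296 unique molecular identifiers (UMIs, each standing for 1 captured RNA molecule) per cell. The tumour libraries shared 129 cell barcodes and every other pair shared 1 to 18. Clustering without the 109 genes gave 28 clusters, of which 26 were named by marker genes in 15 classes. The normal library held 2 acinar-like cells, the cell type that forms most of this organ, and 598 of its cells lay in an unnamed cluster with raised markers of acinar and epithelial cells and a median of 667 UMIs over all its cells. The libraries also stood apart in RNA makeup. Cytosolic ribosomal protein genes took 15.1% of UMIs in the AF12198 tumour, 9.10% in the control tumour, 6.77% in the ligated pancreas and 11.5% in the normal pancreas, and Gm42418, a gene that overlaps ribosomal RNA, took 4.92%, 4.48%, 15.0% and 7.46% in the same order of libraries. Genes known to be induced by tissue digestion took 1.13%, 2.19%, 2.53% and 3.12%. Their part in the results below was not tested.

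Promoter windows, 250 bases before to 50 bases after the transcript start (RefSeq, GRCm38.p6), were matched for 90 of the 109 genes. Nuclear respiratory chain genes are known targets of NRF1, of ETS-family factors such as GABPA, and of YY1, so the letters of their core motifs were searched on both strands. The NRF1 letters GCATGCGC stood in a window of 12 of the 90 genes (13.3%), against 3.05% of all 27025 genes with windows of this length. A gene with more than 1 window was counted where any of them matched. CCGGAAG, an ETS core, stood in a window of 27 genes (30%, against 9.93%), with 5 of the 7 matched complex II genes among them. CAAGATGG, a YY1 core, stood in a window of 9 (10.0%, against 2.42%). A match describes the letters only. The windows of 4 genes on which the comparisons below turn are printed here, Cox8a and Sdha because they lay on opposite sides in AF12198 tumours, Uqcc2 for its level in tumour epithelium, and Ndufa11 for its place in the ligated epithelium and the neutrophil clusters. Capitals mark a match on either strand.
Cox8a, chr19:7217567-7217866, minus strand: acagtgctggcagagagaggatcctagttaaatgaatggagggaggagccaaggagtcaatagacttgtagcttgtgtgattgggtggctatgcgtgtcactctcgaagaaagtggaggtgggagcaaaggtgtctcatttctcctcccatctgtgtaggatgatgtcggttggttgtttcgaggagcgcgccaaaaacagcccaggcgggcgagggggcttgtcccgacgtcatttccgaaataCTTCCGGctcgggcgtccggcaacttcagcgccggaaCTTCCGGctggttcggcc
Sdha, chr13:74350191-74350490, minus strand: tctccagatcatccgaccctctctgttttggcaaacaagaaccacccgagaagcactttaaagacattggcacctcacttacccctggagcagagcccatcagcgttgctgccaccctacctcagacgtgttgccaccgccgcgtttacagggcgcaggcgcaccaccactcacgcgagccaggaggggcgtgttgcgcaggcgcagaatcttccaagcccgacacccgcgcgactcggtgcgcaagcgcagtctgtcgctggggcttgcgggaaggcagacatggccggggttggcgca
Uqcc2, chr17:27133842-27134141, minus strand: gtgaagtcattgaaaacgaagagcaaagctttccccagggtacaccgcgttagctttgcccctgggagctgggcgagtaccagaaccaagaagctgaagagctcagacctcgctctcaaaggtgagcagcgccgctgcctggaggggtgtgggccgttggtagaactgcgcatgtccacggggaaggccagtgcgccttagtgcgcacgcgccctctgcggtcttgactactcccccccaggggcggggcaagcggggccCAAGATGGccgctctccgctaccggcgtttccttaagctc
Ndufa11, chr17:56717512-56717811, plus strand: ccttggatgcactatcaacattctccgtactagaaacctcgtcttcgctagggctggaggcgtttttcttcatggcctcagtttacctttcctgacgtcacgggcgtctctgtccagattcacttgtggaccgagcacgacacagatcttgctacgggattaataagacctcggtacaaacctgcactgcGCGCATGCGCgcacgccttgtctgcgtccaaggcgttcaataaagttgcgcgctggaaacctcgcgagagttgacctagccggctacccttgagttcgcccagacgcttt
The Cox8a window held the ETS letters at 2 places, that of Uqcc2 the YY1 letters, that of Ndufa11 the NRF1 letters on both strands at overlapping positions, and that of Sdha none of the 3.

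Epithelial-like cells gave the nuclear chain genes their largest share of RNA among the named classes of both tumours and of both pancreas libraries. The 109 genes together took 2.48% of the UMIs of epithelial-like cells in the AF12198 tumour, 1.88% in the control tumour, 1.46% in the ligated pancreas and 2.43% in the normal pancreas. Among epithelial-like cells of 1000 to 3000 UMIs the shares were 2.30%, 1.87%, 0.689% and 1.18% in the same order. The place of the normal pancreas relative to the tumours thus depended on the depth of the cells taken. Dendritic-like cells followed with 2.26% in the AF12198 tumour and 1.61% in the control tumour. Macrophage/monocyte-like cells had 2.05%, 1.36%, 0.853% and 0.819% in the 4 libraries from AF12198 tumour to normal pancreas, and fibroblast-like cells had 1.92%, 1.23%, 0.972% and 0.818%. Neutrophil-like cells, the most numerous class of both tumours, were low, with 1.47% in the AF12198 tumour, 1.00% in the control tumour and 0.551% in the ligated pancreas. The order of the classes was thus broadly kept between the tumours while the whole scale differed between libraries. A share of UMIs cannot tell fewer transcripts of these genes from more transcripts of others.

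**Figure D1:**
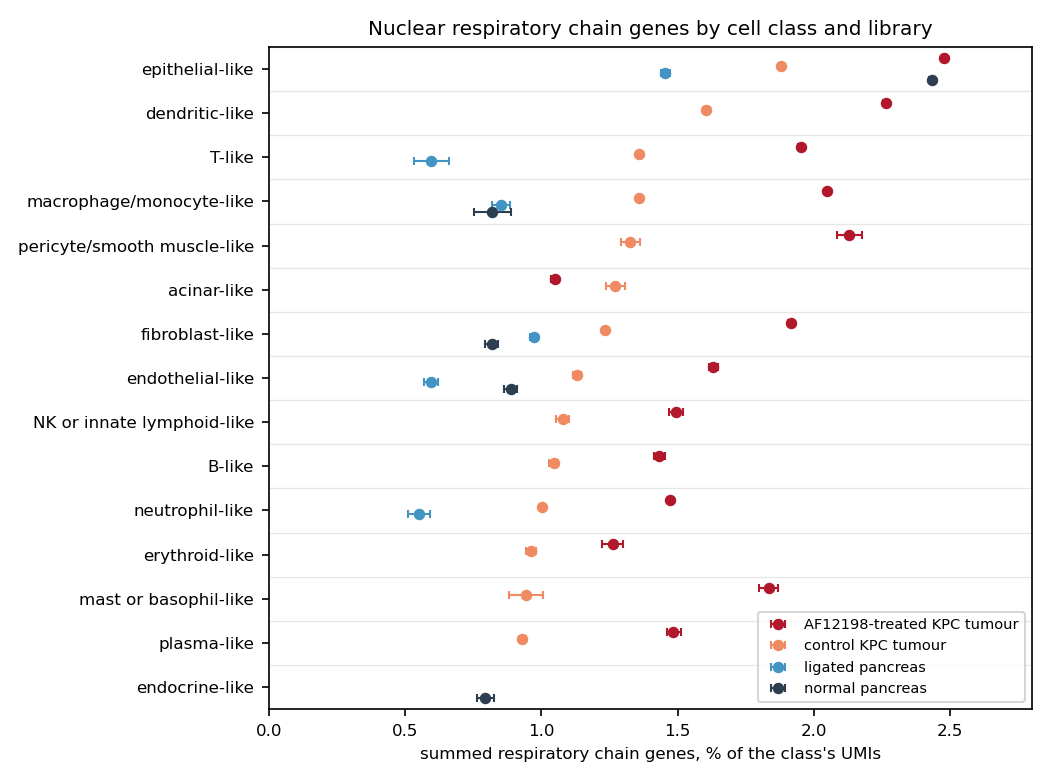
Percent of a class's UMIs that came from the 109 nuclear respiratory chain genes (x axis) in each marker-named class (rows) and library (colours), for classes of at least 25 cells; points are sums over cells and bars the 95% counting interval. Epithelial-like cells of the AF12198 tumour (2.48%) and of the normal pancreas (2.43%) lie farthest right, and in 13 of 14 classes the AF12198 tumour lies right of the control tumour. Among cells of 1000 to 3000 UMIs, which are not drawn apart, these 2 epithelial-like values were 2.30% and 1.18%.

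Gene by gene, the same classes stood out. Each tumour had 11 classes with at least 100 cells, with acinar-like and mast or basophil-like cells among them in the AF12198 tumour, and erythroid-like and plasma-like cells in their place in the control tumour, so the counts of the tumours are over different sets. Among these, epithelial-like cells had the highest counts per 1000000 UMIs (CPM) for 52 of 105 member genes in the AF12198 tumour, where 18.2% of all genes peaked in that class, and for 62 of 105 in the control tumour, against 21.3% of all genes. Dendritic-like cells were highest for 18 and 17 members in the AF12198 and control tumours, against 4.72% and 5.51% of all genes. Neutrophil-like cells were lowest for 34 members in the AF12198 tumour (10.3% of all genes) and for 32 in the control tumour (12.8%). Within the epithelial-like class of the AF12198, control, ligated and normal libraries, complex I subunits took 0.717%, 0.537%, 0.463% and 0.763% of UMIs, complex III subunits 0.210%, 0.154%, 0.136% and 0.237%, complex IV subunits 0.683%, 0.480%, 0.346% and 0.613%, and complex V subunits 0.704%, 0.560%, 0.399% and 0.659%. Complex II subunits took 0.0288%, 0.0357%, 0.0305% and 0.0429%, and were alone among the complexes in being lower in the AF12198 tumour than in the control tumour in this class.

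The tissue-restricted paralogs had narrow patterns that the summed share does not show. Ndufa4l2, a relative of Ndufa4 known to be induced by low oxygen, reached 321 CPM in pericyte/smooth muscle-like cells of the AF12198 tumour, 222 CPM in the control tumour, 111 CPM in the ligated pancreas and 599.5 CPM in the normal pancreas, from 40, 95, 20 and 10 cells. It made up 66.7%, 74.4%, 100% and 88.9% of the UMIs of the Ndufa4l2 and Ndufa4 pair there. A UMI of Ndufa4l2 was seen in 67.5% of these cells in the AF12198 tumour and 48.4% in the control tumour, against no epithelial-like cell of the AF12198 tumour and 0.156% of those of the control tumour. Fibroblast-like cells had 69.0, 34.9, 14.1 and 52.2 CPM. The ligated value was the lowest of the 4 in both classes, but no ranking of libraries is read from the pericyte/smooth muscle-like values. The 20 ligated and 10 normal cells there held 63232 and 26689 UMIs over all genes. Both lie under the minimum of 25 cells used for the comparisons. Cox4i2, the paralog of Cox4i1 known for its oxygen-sensitive form of complex IV, was likewise a gene of the pericyte-like class, with 135, 114, 94.9 and 225 CPM, or 13.3%, 14.5%, 35.3% and 54.6% of the UMIs of its pair in the AF12198, control, ligated and normal libraries. Its ligated and normal values rest on the same 20 and 10 cells.

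Cox6a2, known as the heart and skeletal muscle form of Cox6a1, was prominent in 1 cluster of dendritic-like cells led by Siglech and Ccr9. It reached 744 CPM in 70 such cells of the AF12198 tumour and 546 CPM in 85 cells of the control tumour, and made up 71.4% and 65.5% of the UMIs of its pair. At least 1 UMI was found in 78.6% of these cells in the AF12198 tumour and 60% in the control tumour, compared with 0.0853% and 0.233% of epithelial-like cells. This cluster had no UMI of Ndufa4l2 or Cox4i2 in the AF12198 tumour, where the floor of 3 counts corresponds to 7.51 CPM. Outside it, Cox6a2 had 58.3 CPM in endocrine-like cells of the normal pancreas, but from 17 UMIs in 1.802% of cells. Cox6b2, known as the testis form of Cox6b1, was low, with 16.7, 16.6, 6.25 and 3.48 CPM in fibroblast-like cells of the 4 libraries and 28.3 CPM, from 15 UMIs, in mast or basophil-like cells of the AF12198 tumour, the highest value among the 11 classes there. Cox7a1, a muscle form, had 8.15, 4.68, 4.52 and 13.1 CPM in epithelial-like cells.

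**Figure D2:**
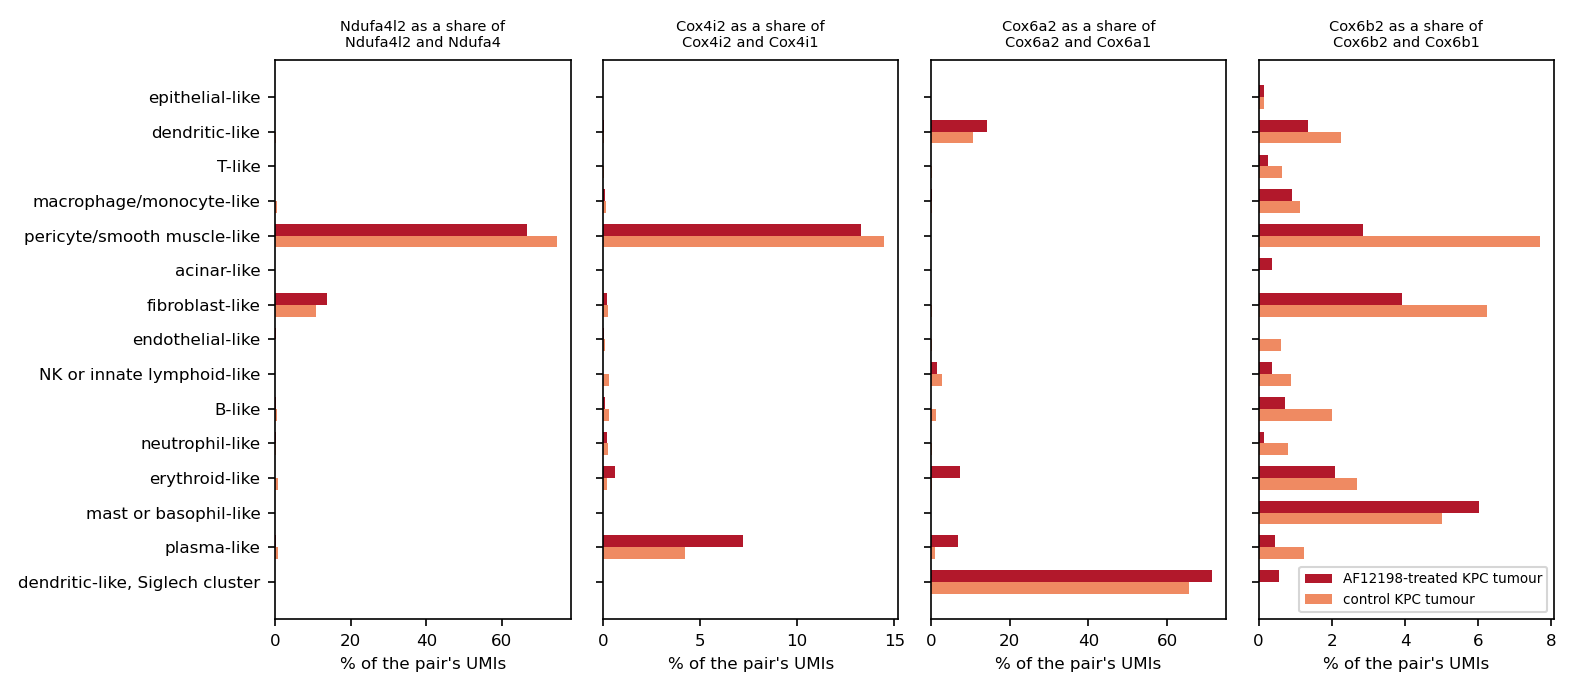
Share of the UMIs of a paralog pair that came from the tissue-restricted member (x axis, percent) in each class (rows), in the AF12198 and control tumours, for Ndufa4l2, Cox4i2, Cox6a2 and Cox6b2. Ndufa4l2 stands out in pericyte/smooth muscle-like cells (66.7% in the AF12198 tumour and 74.4% in the control tumour) and Cox6a2 in the Siglech cluster (71.4% and 65.5%), which is part of the dendritic-like class and is also drawn alone.

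The comparison of AF12198 with control tumours asks what IL1R1 blockade changed in tumour and host cells. Nuclear chain genes took a larger share of UMIs in the AF12198 tumour in 13 of 14 classes with at least 25 cells in both tumours. The fold, AF12198 over control, was 1.32 in epithelial-like cells (1.31 to 1.33), 1.56 in fibroblast-like cells (1.54 to 1.57), 1.51 in macrophage/monocyte-like cells (1.503 to 1.517), 1.47 in neutrophil-like cells (1.45 to 1.48) and 1.44 in T-like cells (1.42 to 1.45). Its median over the 14 classes was 1.44, and it ran up to 1.95 in mast or basophil-like cells, of which the control tumour had 34. Acinar-like cells, 325 against 66, were the exception at 0.826 (0.802 to 0.851). The 14 classes come from the same 2 libraries and are not 14 tests.

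Single members were counted as called where their CPM differed by at least 1.5-fold, among those with at least 20 UMIs in the libraries compared and 5 CPM in either. Of 102 members measured in epithelial-like cells, 26 were higher in the AF12198 tumour and 2 lower, against 7.16% and 28.2% of all genes measured. In fibroblast-like cells 49 of 103 were higher and 0 lower (8.39% and 24.9% of all genes), and in macrophage/monocyte-like cells 43 of 99 were higher and 1 lower (7.23% and 28.7%). Neutrophil-like cells had 32 higher and 3 lower of 93 (7.04% and 33.6%), and T-like cells 35 and 2 of 98 (6.46% and 38.7%). In all 5 classes, then, members lay on the higher side more often than genes at large.

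The typical gene was lower in the AF12198 tumour in every class, so these counts were also taken relative to it. The median log2 ratio over all genes measured was -0.31 in epithelial-like cells, -0.27 in fibroblast-like cells, -0.31 in macrophage/monocyte-like cells, -0.33 in neutrophil-like cells and -0.41 in T-like cells, while that of the members was 0.28, 0.56, 0.49, 0.39 and 0.40. Relative to the all-gene median, 51 members were higher and 1 lower in epithelial-like cells, where 15.0% and 9.63% of all genes were. The counts were 69 and 0 in fibroblast-like cells (15.0% and 10.0% of all genes), 69 and 0 in macrophage/monocyte-like cells (14.5% and 10.6%), 52 and 2 in neutrophil-like cells (15.1% and 16.9%) and 69 and 0 in T-like cells (15.1% and 13.9%). Acinar-like cells had a member median of -0.22 beside an all-gene median of -1.25, so their direction turns under this scaling.

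**Figure D3:**
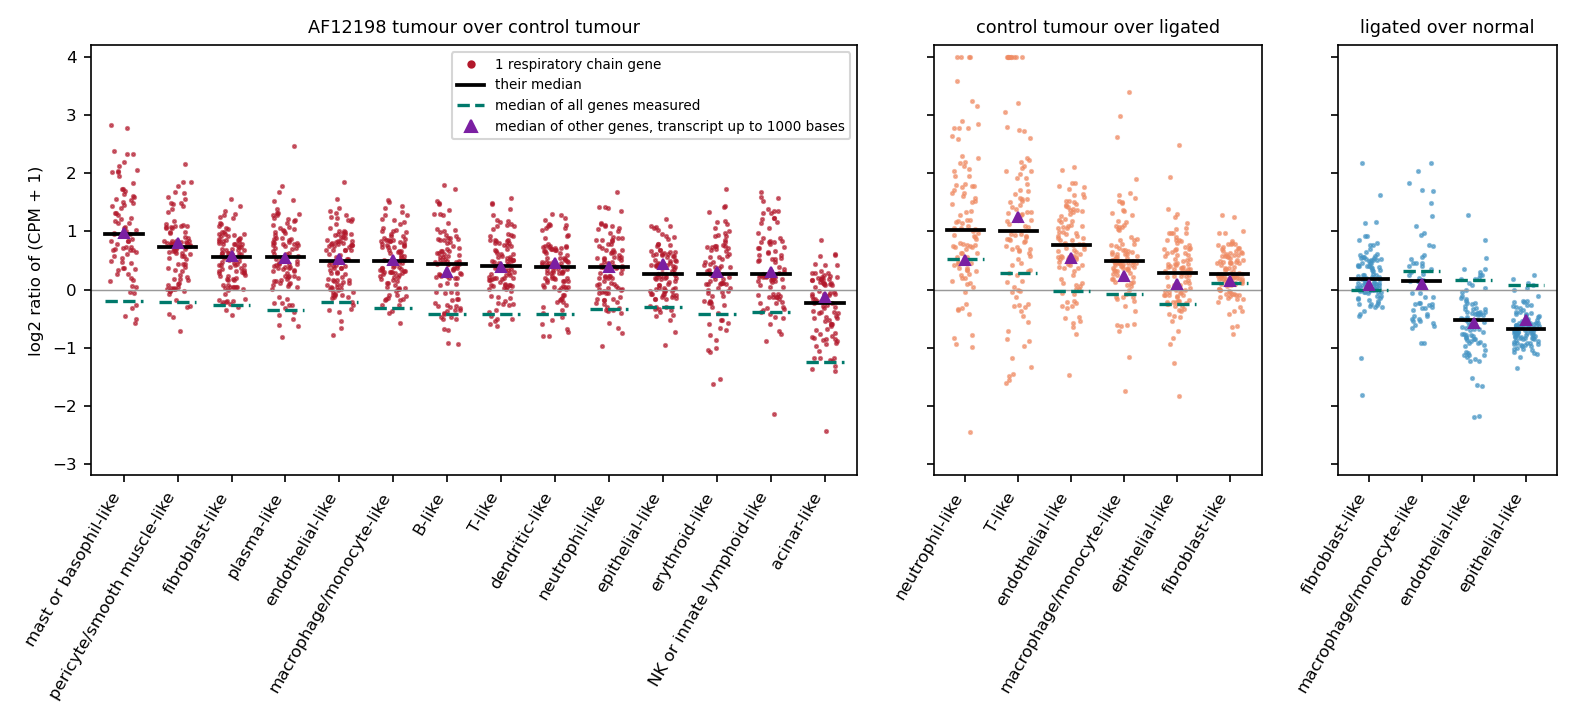
Log2 ratio of (CPM + 1) of each member gene (points, in the colour of the first library of each panel) by class for AF12198 over control tumour, control tumour over ligated pancreas and ligated over normal pancreas. Black bars are member medians, dashed green bars all-gene medians and purple triangles the medians of other genes with transcripts of up to 1000 bases; values beyond -3 or 4 are drawn at those limits. In AF12198 over control tumours the member median lies above the all-gene median in all 14 classes (0.28 against -0.31 in epithelial-like cells).

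The members that led this difference belonged to complexes I, IV and V. Cox5b, a structural subunit of complex IV, had 269 CPM in epithelial-like cells of the AF12198 tumour, against 141 CPM in the control tumour, 205 CPM in the ligated pancreas and 390.3 CPM in the normal pancreas. In fibroblast-like cells Cox5b had 276, 102, 110 and 73.1 CPM in the same libraries. It was thus high in AF12198 tumour cells of both classes relative to the control tumour, by 1.91-fold (1.81 to 2.01) and 2.72-fold, and its median fold over the 14 classes was 2.98. Cox8a, the small complex IV subunit whose promoter is printed above, had 972 against 468 CPM in epithelial-like and 1099 against 417 CPM in neutrophil-like cells, with a median fold of 2.56. Both genes were called higher in 13 of 14 classes.

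Ndufa13, a complex I subunit also known as GRIM-19, and Atp5e, the epsilon subunit of the ATP synthase, were called higher in all 14. Ndufa13 had 544 CPM in epithelial-like cells of the AF12198 tumour, against 257 CPM in the control tumour, and 389 against 137 CPM in T-like cells, for a median fold of 2.66. Atp5e had 799 against 327 CPM in fibroblast-like cells and 840 against 318 CPM in macrophage/monocyte-like cells, with a median fold of 2.63. Cox6c led epithelial-like cells, at 1133 against 490.4 CPM, or 2.31-fold. Of 78 members measured in all 14 classes, 47 were above 1 in at least 13 of them, 23 in all 14, and 2 were below 1 in all 14. The same counts were not taken over all genes, so no background stands beside them.

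The pair below 1 in every class were Sdha and Atp5g3. Sdha, the flavoprotein that oxidises succinate in complex II, had 56.6 CPM in epithelial-like cells of the AF12198 tumour, against 111 CPM in the control tumour, 128 CPM in the ligated pancreas and 149 CPM in the normal pancreas. Its fold between the tumours was 0.512 (0.469 to 0.557) there and 0.740 in fibroblast-like cells, with 70.4 against 95.2 CPM, and it was called lower in 7 of 14 classes. Sdhb, the iron-sulphur subunit that works beside Sdha, went the other way, with 81.2 against 51.8 CPM in epithelial-like cells (1.57, 1.43 to 1.72) and 54.0 against 39.9 CPM in fibroblast-like cells (1.35). Complex II as a whole therefore held opposite members, and its summed fold had a median of 0.857 and was above 1 in 2 of 14 classes.

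Atp5g1, Atp5g2 and Atp5g3 encode precursors of the identical mature subunit c, which forms the proton-driven ring of the ATP synthase. The 3 genes differed in direction. Atp5g1 had 306 CPM in epithelial-like cells of the AF12198 tumour, against 149 CPM in the control tumour (2.05-fold), and 301 against 101 CPM in fibroblast-like cells (2.98-fold). Atp5g2 had 473 against 504 CPM (0.938) and 323 against 260.4 CPM (1.24) in those 2 classes. Atp5g3 had 298 against 392 CPM (0.761) and 218 against 249.6 CPM (0.872). Over 14 classes their median folds were 2.67, 0.986 and 0.756, so higher values of one transcript of subunit c stood beside lower values of another. How reads that match more than 1 gene were counted is not given in the sources used here, which leaves the split between such paralogs, and from the processed pseudogenes that many members have, uncertain.

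By complex, the summed folds were above 1 in 13 of 14 classes for complex I (median 1.44), complex III (1.45), complex IV (1.54) and complex V (1.42), and for the assembly and other factors (1.29). Genes of the mitochondrial chromosome that encode the other subunits of these complexes behaved differently. Their summed share was above 1 in 3 of 14 classes, with a median fold of 0.784 and a range of 0.537 to 1.08. Enzymes of the tricarboxylic acid cycle, which feed the chain with NADH and succinate, were above 1 in 0 of 14 classes (median 0.840), and the regulators list, which holds Ppargc1a, Nrf1, Gabpa and Tfam, in 1 (median 0.723). Other nuclear chain and assembly genes were above 1 in 13 (1.34), mitochondrial ribosomal protein genes in 13 (1.37), glycolysis genes in 12 (1.11) and cytosolic ribosomal protein genes in 14, with the highest median of these lists, 1.81. The tissue digestion list was below 1 in all 14 classes, with a median of 0.543; its part in the difference was not tested.

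Transcript length moved with the same difference. The longest annotated transcript (GENCODE basic annotation) had a median of 934 bases among the members and 2025 bases among all genes, and 58 members were no longer than 1000 bases. Genes outside the members and the cytosolic ribosome had a median log2 ratio of 0.44 over the 14 classes where the transcript was up to 1000 bases, -0.09 above that and up to 2000 bases, -0.38 above 2000 and up to 4000 bases, and -0.51 beyond. Members had 0.55, 0.31 and -0.01 in the first 3 of these bins. The 4 members beyond 4000 bases, which are Atp5g1, Cox15, Ndufb2 and Sdhaf3, broke the order, with a median of 0.48 that was above 0 in all 6 classes where it could be taken. Sdha, at 2900 bases, and Ndufs1, the large iron-sulphur subunit of complex I, at 2661 bases and 30.3 against 44.7 CPM in T-like cells, lay on the low side, while Cox8a (550 bases) and Cox5b (865 bases) lay on the high side. Among the subunit c genes, Atp5g3 and Atp5g2 have 723 and 731 bases and Atp5g1 4715. All these are longest annotated forms, and which form was expressed was not examined. A gene may therefore lie in a bin too long for it, which also limits the comparison with genes of like length. Relative to other genes of like length, the members' median was higher by 0.13 to 0.42 log2 in 14 of 14 classes. On that scale 18 members were called higher and 4 lower in epithelial-like cells, against 10.7% and 8.92% of the other genes, 25 and 1 in fibroblast-like cells (9.50% and 9.81%), and 27 and 2 in macrophage/monocyte-like cells (9.56% and 10.4%). The gap was narrow among the shortest transcripts of epithelial-like cells, where members and other genes of up to 1000 bases both had a median log2 ratio of 0.44, while in macrophage/monocyte-like cells it was 0.66 for members and 0.51 for other genes. The part of transcript length in the difference between the tumours was not tested further.

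**Figure D4:**
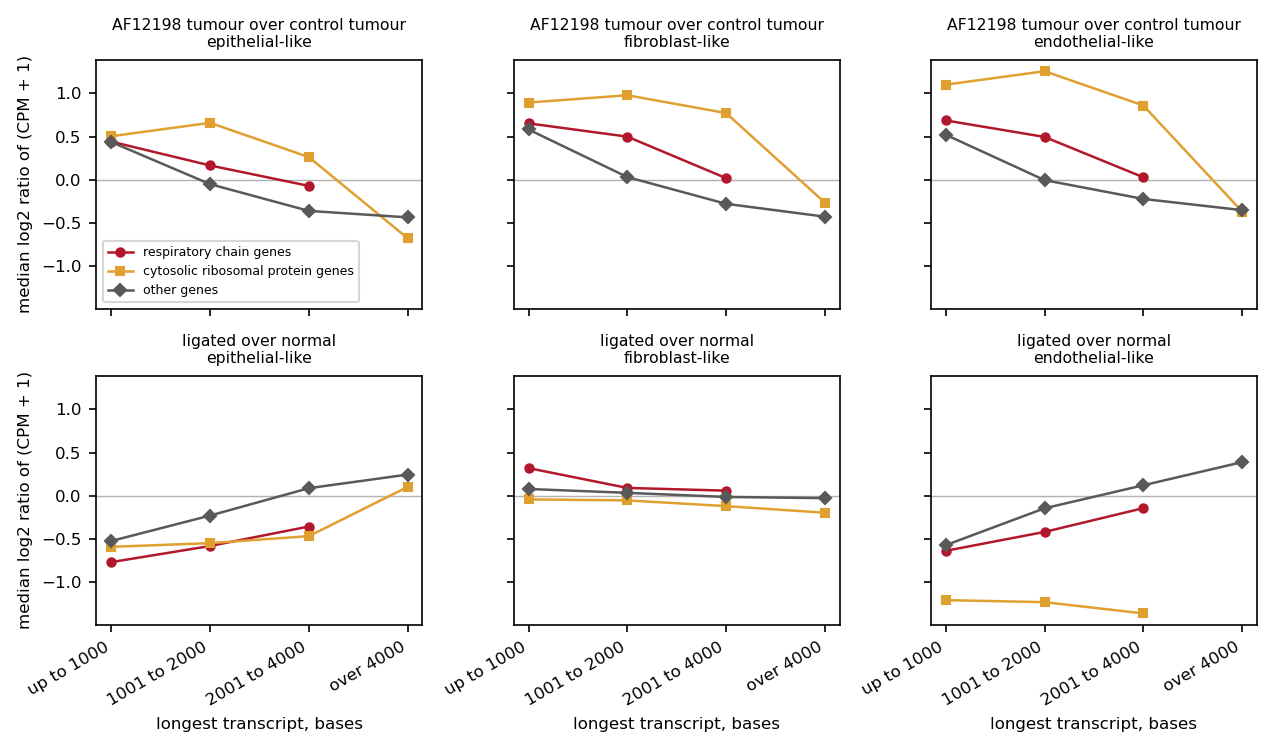
Median log2 ratio (y axis) by length of the longest transcript (x axis, bases) for members, cytosolic ribosomal protein genes and all other genes, in epithelial-like, fibroblast-like and endothelial-like cells, for AF12198 over control tumour (top) and ligated over normal pancreas (bottom). In the top panels the line of other genes falls with length; its median over 14 classes is 0.44 up to 1000 bases and -0.51 above 4000 bases.

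The step from ligated pancreas to control tumour asks what the inoculated cancer cells added to a ligated gland. Nuclear chain genes took a larger share in the control tumour in all 6 classes that could be compared, from 1.27-fold to 2.29-fold. Epithelial-like cells were at 1.29 (1.28 to 1.31), fibroblast-like cells at 1.27 (1.25 to 1.29), macrophage/monocyte-like cells at 1.59 (1.53 to 1.65) and neutrophil-like cells at 1.82 (1.69 to 1.96). Of the macrophage/monocyte-like cells, 139 of 171 ligated and 1853 of 4750 control tumour cells lay in a cluster with Ccr2 among its leading genes. A cluster led by Arg1 held 1171 control tumour cells and 7 ligated cells, so this class compares different mixes of clusters. The highest fold, 2.29 in T-like cells, rests on 59 ligated cells, of which 51 lay in a cluster led by Lef1 and Tcf7, while 1480 of the control tumour's 2427 T-like cells lay in a cluster led by Gm156, Ccl1, Cd8a and Pdcd1 that held 3 ligated cells, so it compares different clusters. Among cells of 1000 to 3000 UMIs the fold was 2.71 in epithelial-like and 2.12 in fibroblast-like cells, so its size depends on the depth of the cells taken. By complex, the median fold over the 6 classes was 1.61 for complex I, 1.44 for complex II, 1.70 for complex III, 1.796 for complex IV and 1.798 for complex V. Mitochondrially encoded genes were higher in the control tumour in all 6 as well, by 1.84-fold to 5.06-fold. This comparison shares the control tumour library with the one between the tumours, and shares the ligated library with that of ligation.

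Counts of single members stood closer to the background here. In epithelial-like cells 30 of 101 members were higher in the control tumour and 5 lower, against 26.3% and 40.3% of all genes measured (relative to the all-gene median of -0.24, 48 and 4, against 32.3% and 33.3%). Relative to other genes of like transcript length these were 30 and 5, against 31.5% and 33.3% of those genes, so the higher count is near the background on that scale and the lower count is below it. Fibroblast-like cells had 24 higher and 3 lower of 101, against 21.9% and 15.4% of all genes (relative to their median of 0.11, 16 and 3, against 17.6% and 18.6%), so the higher count there is near the background. Macrophage/monocyte-like cells had 41 higher and 7 lower of 99 (23.9% and 28.9%), or 39 higher with the 2 members at 0 UMIs in the ligated library at their lower bound. In neutrophil-like cells 66 of 96 were higher and 5 lower (49.0% and 20.3%). Relative to the all-gene median of 0.52 these were 45 and 10, against 36.8% and 33.2%. The ligated library had 79 such cells, with 8 members at 0 UMIs, and 58 members were higher with those at their lower bound. The class also compares different clusters here. The Asprv1 cluster held 68 of the 79 ligated cells, while 3897 of the control tumour's 5987 cells lay in the Entpd3 and Il1r2 cluster, which held 3 ligated cells, and within the Asprv1 cluster the summed fold was 1.39.

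The epithelium of the tumours was not the same population as that of the ligated gland. Nearly all epithelial-like cells of the ligated pancreas, 331 of 336, lay in 1 cluster led by Dcdc2a, Ces1d and Onecut1, which held 88 of the control tumour's 1286 epithelial-like cells. Within that cluster the fold, control tumour over ligated, was 1.04 (1.02 to 1.06), with 5 of 100 members higher and 10 lower, against 17.6% and 22.2% of all genes. Within the tumours, the cluster led by Onecut2 and Hmga2, which held 456 and 557 cells of the AF12198 and control tumours and 1 of the ligated pancreas, gave the members 1.22 times the share of the shared cluster in both. Uqcc2, an assembly factor of complex III, differed between these clusters. It had 339 CPM in epithelial-like cells of the AF12198 tumour, 221 CPM in the control tumour, 38.4 CPM in the ligated pancreas and 80.6 CPM in the normal pancreas, so that both tumours lay above both pancreas libraries. The fold, control tumour over ligated, was 5.76 (4.64 to 7.22) in the class and 1.51 within the shared cluster, where the control tumour had 58.2 CPM and the ligated pancreas 38.6 CPM. In the Onecut2 cluster Uqcc2 was 4.26-fold higher than in the shared cluster in the AF12198 tumour (359 against 84.3 CPM) and 3.94-fold higher in the control tumour (229 against 58.2 CPM). In fibroblast-like cells Uqcc2 was lower in the control tumour, at 73.9 against 126.6 CPM (0.583).

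Cox5a, a structural subunit of complex IV, was called higher in the control tumour than in the ligated pancreas in all 6 classes, with a median fold of 3.598. Epithelial-like cells had 357 CPM in the AF12198 tumour, 377 CPM in the control tumour, 97.6 CPM in the ligated pancreas and 175 CPM in the normal pancreas, and fibroblast-like cells 226, 182, 106 and 47.0 CPM in the same order. Unlike Cox5b, Cox5a was therefore at like levels in both tumours and differed from the pancreas libraries. The fold, control tumour over ligated, was 3.86 (3.37 to 4.44) in epithelial-like cells and 1.71 in fibroblast-like cells, and within the shared epithelial cluster it was 2.55. Ndufb6, a complex I subunit (median fold 3.10), and Atp5g2 (2.78) were also called higher in all 6 classes. Ndufaf7, a methyltransferase needed to assemble complex I, was called lower in all 6 (median 0.415), with 16.6 CPM in epithelial-like cells of the control tumour and 30.3 CPM in those of the ligated pancreas. Ndufaf3, also an assembly factor of complex I, had 8.64 against 33.5 CPM there (0.258).

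Ligation itself was compared with normal pancreas in epithelial-like, endothelial-like, fibroblast-like and macrophage/monocyte-like cells, and the classes did not share a direction. Nuclear chain genes were lower in ligated epithelium, at 0.598 of their normal share (0.591 to 0.605), and 70 of 103 members were called lower and 0 higher, against 11.1% and 14.9% of all genes measured. The all-gene median log2 ratio was 0.07 while that of the members was -0.68. All but 5 of the ligated and every normal epithelial-like cell belong to the cluster that all 4 libraries share, and within it alone the fold was 0.599. The ligated library had 13.2% Gm42418 UMIs in these cells, against 5.40% in the normal library, and a median of 3964 against 9806 UMIs per cell; their part in the result was not tested. Among cells of 1000 to 3000 UMIs the fold was 0.584.

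In ligated epithelium 31 of 37 complex I subunits were called lower (summed fold 0.607), as were 12 of 13 complex IV subunits (0.564), 14 of 17 complex V subunits (0.605), 5 of 8 complex III subunits (0.573), 1 of 4 complex II subunits (0.710) and 7 of 24 assembly and other genes (0.696). Ndufa11, a membrane subunit of complex I, had 72.8 CPM in ligated and 165 CPM in normal epithelial-like cells (0.442), Uqcr10, a small subunit of complex III, 168 and 364 CPM (0.461), and Cox8a 360.3 and 764 CPM (0.472). The lowest ratio was that of Cox7a1, at 4.52 and 13.1 CPM (0.346, 0.162 to 0.658). Core subunits of high level were lower as well, Cox4i1 having 654 CPM in ligated and 1056 CPM in normal cells (0.619). At the other end stood Sdhaf3, an assembly factor of complex II, with 14.9 and 12.4 CPM (1.201), and Ndufs1, with 47.9 and 44.1 CPM (1.09, 0.868 to 1.35), an interval that includes 1. Mitochondrially encoded genes were not lower (1.06), whereas glycolysis genes (0.713), cytosolic ribosomal protein genes (0.668), mitochondrial ribosomal protein genes (0.715) and tricarboxylic acid cycle genes (0.815) were. Relative to other genes of like transcript length, 18 members were called lower and 0 higher, against 8.19% and 11.1% of those genes.

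Endothelial-like cells went the same way, at 0.670 (0.637 to 0.705) from 131 ligated and 260 normal cells, with 41 of 87 members lower and 2 higher, against 18.2% and 28.9% of all genes. A cluster led by Ccl21a and Mmrn1 held 39 of these ligated cells but 3 of the normal cells. The class therefore compares different mixes of clusters, and the fold within a single cluster was not taken. Ndufa8, a complex I subunit of the intermembrane space, had 43.9 CPM in ligated and 140 CPM in normal cells (0.312), and Sdhb 8.77 and 43.8 CPM (0.200), from 3 and 29 UMIs. Relative to the all-gene median of 0.16, 53 members were lower and 2 higher, against 23.2% and 22.7% of all genes. Relative to other genes of like transcript length, however, 21 were lower and 5 higher, against 20.7% and 21.4% of those genes, so the lower count is near the background on that scale. Fibroblast-like and macrophage/monocyte-like cells were not lower. The fibroblast-like summed fold was 1.19 (1.15 to 1.23), from 282 ligated and 93 normal cells, with 15 of 96 members higher and 2 lower, against 20.4% and 18.0% of all genes, and it was 0.933 with each cell weighing the same and 0.837 among cells of 1000 to 3000 UMIs, so no direction is read from it. Macrophage/monocyte-like cells, 171 ligated and 25 normal, had a fold of 1.04 (0.952 to 1.14), an interval that includes 1. Of 55 members measured in them 13 were higher and 5 lower, against 38.8% and 14.5% of all genes, and relative to the all-gene median of 0.33 these were 10 and 18, against 28.5% and 24.5%. Within fibroblast-like cells Cox5a had 106 CPM in ligated and 47.0 CPM in normal cells (2.26, 1.51 to 3.51) and Ndufa4l2 14.1 and 52.2 CPM (0.269, 0.154 to 0.469).

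Neutrophils are known to rely largely on glycolysis and to hold few mitochondria, and the libraries allowed them to be set against the other large myeloid class within each tumour. Neutrophil-like over macrophage/monocyte-like, the summed fold was 0.718 in the AF12198 tumour (0.714 to 0.722), 0.740 in the control tumour (0.735 to 0.746) and 0.647 in the ligated pancreas. Glycolysis genes took 0.442%, 0.392% and 0.545% of UMIs in neutrophil-like cells of these libraries. Macrophage/monocyte-like cells had 0.552%, 0.392% and 0.271%, so the glycolysis list had no common direction. In the AF12198 tumour 57 of 98 members were lower in neutrophil-like cells and 2 higher, against 41.8% and 20.8% of all genes, and in the control tumour 49 of 96 were lower and 3 higher, against 37.7% and 18.5%. Relative to the all-gene medians of -0.34 and -0.28, 41 members were lower and 4 higher in the AF12198 tumour, against 31.0% and 29.6% of all genes, and 26 lower and 4 higher in the control tumour, against 26.6% and 25.7%. The control tumour's lower count is thus near the background on that scale, and its higher count is below it. Ndufc2, a complex I subunit, was among the lowest, with 53.8 against 173 CPM in the AF12198 tumour (0.311) and 45.8 against 138 CPM in the control tumour (0.332). The classes differed in depth, with medians of 1346 and 1390 UMIs per neutrophil-like cell, against 5770 and 2824 per macrophage/monocyte-like cell, in the AF12198 and control tumours. Among cells of 1000 to 3000 UMIs the folds were 0.886 and 0.942.

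Cox17, the copper chaperone that serves the assembly of complex IV, was among the few members called higher in neutrophil-like cells. It had 1476 CPM in neutrophil-like and 392 CPM in macrophage/monocyte-like cells of the AF12198 tumour (3.77, 3.68 to 3.86). The control tumour had 858 and 299 CPM (2.87, 2.78 to 2.97), and the ligated pancreas 639.7 and 132 CPM (4.83, 3.30 to 7.18). Neutrophil-like cells were thus higher in all 3 libraries that held them. In epithelial-like cells Cox17 had 279.7, 294, 149 and 218 CPM from the AF12198 tumour to the normal pancreas, with the tumours at like levels. Between the tumours it was higher with AF12198 in neutrophil-like cells (1.72).

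Within the neutrophil-like class, Cox17 and the summed members lay in opposite order between the clusters led by Ngp and by Asprv1, but not over all clusters. The cluster led by Ngp and Camp, granule genes of immature neutrophils, gave the members 1.73% of UMIs in the AF12198 tumour and 0.990% in the control tumour, against 0.939% and 0.719% in the cluster led by Asprv1. The fold between these clusters, Ngp over Asprv1, was 1.85 (1.82 to 1.87) in the AF12198 tumour, with 79 of 92 members higher and 1 lower, against 48.2% and 19.3% of all genes, and 1.38 (1.34 to 1.41) in the control tumour, with 49 of 89 higher and 3 lower, against 36.0% and 17.8%. Relative to all-gene medians of 0.50 and 0.28, 56 were higher and 1 lower in the AF12198 tumour (29.7% and 30.4% of all genes), and 23 higher and 5 lower in the control tumour (23.3% and 25.2%), where the higher count is near the background. Ndufa5, a complex I subunit, had 90.1 against 10.7 CPM (8.45) and Ndufa11 118 against 19.8 CPM (5.96) in the AF12198 tumour, and Ndufa11 67.9 against 16.2 CPM (4.197) in the control tumour. Cox17 had 731 CPM in the Ngp cluster and 1633 CPM in the Asprv1 cluster of the AF12198 tumour (0.448), and 467 and 864 CPM in the control tumour (0.541). Both remaining neutrophil-like clusters, led by Gpr84 and by Entpd3 with Il1r2, had 1566 and 1541 CPM in the AF12198 tumour and 943 and 906 CPM in the control tumour. The members took 1.72% and 1.73% of their UMIs in the AF12198 tumour, near the Ngp cluster, and 1.155% and 1.123% in the control tumour, above it. These clusters thus had both the highest member share and the highest Cox17 among the control tumour's neutrophil-like clusters. They hold mostly cells of 1 tumour each (4206 and 179 cells of the AF12198 and control tumours in the first, 84 and 3897 in the second), so the neutrophil-like folds between the tumours compare different clusters. In the Asprv1 cluster alone, with 2728 and 1678 cells, the members' fold was 1.31, but the member median log2 ratio was 0.08, with 16 of 91 members higher in the AF12198 tumour and 12 lower, against 6.82% and 40.7% of all genes. Relative to the all-gene median of -0.41, 41 were higher and 7 lower, against 17.4% and 21.7%. Cox17 made up 35.0% of the difference in summed CPM there. In the Ngp cluster, with 389 and 233 cells, the fold was 1.75 (1.71 to 1.79), with 54 of 90 members higher and 2 lower, against 15.3% and 31.2% of all genes, and Cox17 made up 3.55% of the difference.

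**Figure D5:**
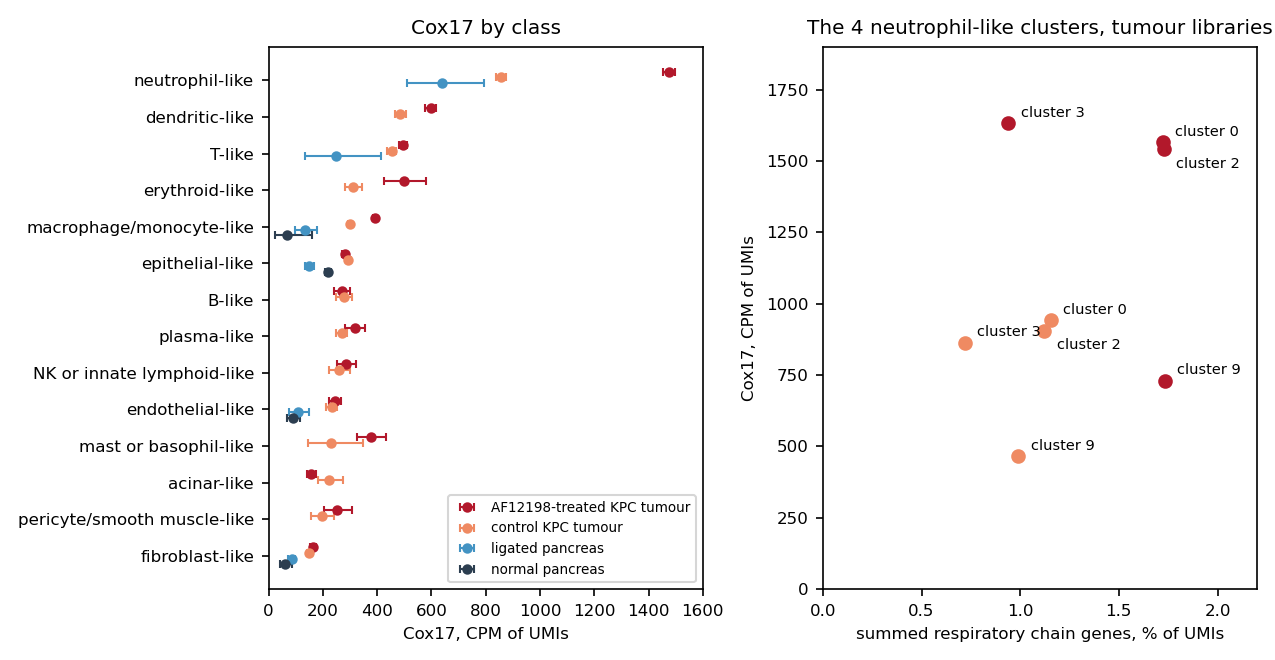
Left, Cox17 in CPM (x axis) by class and library with 95% counting intervals; right, Cox17 CPM against the share of UMIs from all members (percent) for the neutrophil-like clusters of the AF12198 and control tumours. Neutrophil-like cells lie highest at left (1476 CPM in the AF12198 tumour and 858 CPM in the control tumour), and at right the Ngp cluster combines the lower Cox17 value with a higher member share than the Asprv1 cluster.

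Over 29 combinations of class and library, which share depth and library, the genes whose CPM on the log2 scale tracked the summed share of the members most closely were Mrps14, a mitochondrial ribosomal protein gene (Pearson r = 0.947), Psmb5, a catalytic proteasome subunit (0.916), and Eif3k, a translation initiation subunit (0.913). Summed lists gave 0.937 for mitochondrial ribosomal protein genes, 0.802 for cytosolic ribosomal protein genes, 0.605 for glycolysis, 0.571 for the tricarboxylic acid cycle and 0.344 for mitochondrially encoded genes. Among the members, of which each is part of the sum, Atp5c1, the gamma subunit of the ATP synthase (0.958), and Uqcr10 (0.953) lay closest. Farthest among the members ranked were Cox15, which makes the haem of complex IV (-0.10), Uqcc1 (-0.08) and Ndufaf1 (-0.06), all of them assembly genes. These were of low level, with 4.83, 8.15 and 5.37 CPM over all kept cells of the AF12198 tumour. The tissue-restricted subunits Ndufa4l2, Cox4i2, Cox6a2, Cox6b2 and Cox7a1 were among members not ranked. Sdha (0.208) and Ndufs1 (0.0653) were subunits that hardly followed the rest.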

How the data were processed

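Droplet libraries (10x 3' chemistry, cells released by collagenase) were used as the authors' deposited UMI counts per gene and cell barcode. Cell Ranger 6.0.0 and the mm10 build are named per the submitters' processing notes; how multi-mapping reads were counted is not given in the sources used here. Cells with at least 250 genes, at least 500 UMIs and at most 20% mitochondrial UMIs were kept, and scrublet calls removed (1018 in the AF12198 tumour, 2110 in the control tumour, 0 in the ligated pancreas and 3 in the normal pancreas, so doublets may remain in the last 2). Leiden clustering (scanpy 1.11.5, leidenalg 0.10.2, resolution 1) used 2000 variable genes, 40 components and 20 neighbours, without members, mitochondrial or ribosomal genes and without integration. A cluster took the class with the largest share of its marker list raised 2-fold in at least 10% of cells. At least 3 markers had to be raised, and no second class with at least 3 could reach 75% of that share. Shallow clusters with no own marker among their leading genes stayed unnamed, as did clusters with more markers of another class there. These naming thresholds were set after the data were seen, so class names are rebuilt, not the authors'.

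UMIs were summed per class and library and given as CPM or percent. Share intervals are exact Clopper-Pearson and ratio intervals exact conditional binomial (scipy 1.17.1), at the 95% level; both cover counting error only. Log2 ratios used CPM plus 1, and summed folds used no pseudocount. A floor of 3 counts stood in for 0. With 1 library per group no test was run. Kept UMIs were 85479624, 80903879, 5315805 and 11212142 in the AF12198, control, ligated and normal libraries. Code was tested on simulated data.

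Genes named are the 3 highest and 3 lowest members per comparison and class, 2 core members per complex, paralog groups and the 5 widest-ranging members; others were chosen after their values were seen. Members and lists were chosen with earlier results of these data known. Transcript length and the cluster comparisons were added after seeing the data. Length is that of the longest annotated transcript, which need not be the form expressed.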

Additional observations from a re-analysis of the deposited data

Results flagged for a closer look

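In ligated over normal pancreas the members' summed fold was 1.19 in fibroblast-like cells, while epithelial-like cells had 0.598 and endothelial-like cells 0.670. Macrophage/monocyte-like cells, with 25 normal cells, were at 1.04, so fibroblast-like cells were not alone in lacking the lower direction, and their fold turned under other weights of the cells. The difference between the classes was not tested.

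Acinar-like cells were the class in which the members' share was lower in the AF12198 tumour than in the control tumour, at 0.826, with 325 and 66 cells. The other 13 classes were above 1, and this difference between classes was not tested either. Relative to all genes of the same cells the acinar-like member median was higher by 1.02 log2, and relative to other genes of like transcript length by 0.21 log2.

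A signal outside the named classes came from an unnamed cluster of cycling cells led by Ctsk, Slc9b2 and Atp6v0d2, in which dendritic and macrophage markers were both raised. Members took 3.18% of its UMIs in the AF12198 tumour (234 cells) and 1.86% in the control tumour (204 cells), with medians of 14840 and 7550 UMIs per cell. The first value is above that of epithelial-like cells of the same library.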

How the results depend on the processing

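No paired analysis was possible because each group has 1 library, and for the same reason no library could be left out. Folds of the members' summed share are given here where a setting moved them beyond the counting interval; the cause was not tested. AF12198 over control tumour, epithelial-like, gave 1.23 (cells of 1000 to 3000 UMIs), 1.34 (the shared cluster alone), 1.29 (equal cell weight), 1.63 (relative to the all-gene median) and 1.47 (UMIs without mitochondrial, ribosomal, haemoglobin, Gm42418, AY036118 and Malat1 reads in the denominator). Fibroblast-like cells gave 1.57 (at most 10% mitochondrial UMIs), 1.87 (all-gene median) and 1.65 (denominator). Macrophage/monocyte-like cells gave 1.5 (at least 1000 UMIs), 1.47 (10% mitochondrial), 1.54 (1000 to 3000 UMIs), 1.64 (equal weight), 1.87 (all-gene median) and 1.6 (denominator). Neutrophil-like cells gave 1.48, 1.45, 1.31 (Asprv1 cluster alone), 1.41, 1.84 and 1.53 under at least 1000 UMIs, 1000 to 3000 UMIs, that cluster, equal weight, all-gene median and denominator. Control tumour over ligated, epithelial-like, gave 1.32 (10% mitochondrial), 2.71 (1000 to 3000 UMIs), 1.04 (shared cluster), 1.28 (doublets kept), 1.62 (equal weight), 1.53 (all-gene median) and 1.26 (denominator). Fibroblast-like cells gave 2.12 (1000 to 3000 UMIs), 1.68 (equal weight), 1.18 (all-gene median) and 1.11 (denominator), and macrophage/monocyte-like cells 1.90 (1000 to 3000 UMIs), 1.68 (all-gene median) and 1.48 (denominator). Neutrophil-like cells gave 1.39 (Asprv1 cluster), 2.01 (equal weight) and 1.27 (all-gene median). Ligated over normal gave 0.584, 0.512, 0.568 and 0.636 in epithelial-like and 0.579, 0.561, 0.6003 and 0.622 in endothelial-like cells (1000 to 3000 UMIs, equal weight, all-gene median, denominator). Fibroblast-like cells reversed to 0.837 and 0.933 under the first 2 of these and gave 1.15 with the other denominator. Neutrophil-like over macrophage/monocyte-like gave 0.734 and 0.746 (at least 1000 UMIs), 0.886 and 0.942 (1000 to 3000 UMIs), 0.697 and 0.814 (equal weight), 0.909 and 0.9003 (all-gene median) and 0.663 and 0.694 (denominator) in the AF12198 and control tumours, and in the control tumour 0.719 (10% mitochondrial) and 0.746 (doublets kept). Member medians reversed to 1.02 in acinar-like cells of AF12198 over control tumours and to -0.18 in macrophage/monocyte-like cells of ligated over normal (25 normal cells) relative to all genes, and the first to 0.21 relative to genes of like length. Counting every member with at least 1 UMI as measured moved 26 of the 105 member medians and counts taken over classes and clusters, and left 79. The windows of 1000 to 3000 UMIs, the single clusters and the length comparison were chosen after seeing the data. Depth limits the ligated and normal values most, with 5315805 and 11212142 UMIs.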

Other observations

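The normal pancreas held 598 cells of an unnamed cluster, led by Ins1, Ins2 and Iapp with raised markers of acinar and epithelial cells, in which members took 2.49% of UMIs, above the 2.43% of epithelial-like cells of that library and the 0.795% of endocrine-like cells. The cells of this cluster in the normal library had a median of 665 UMIs, and Gm42418 took 16.4% of their UMIs.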
